A study of Mus musculus with 18 samples.

Results

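Expression of 32 genes of fatty acid oxidation and of signalling through the peroxisome proliferator-activated receptors (PPARs) was followed in mouse intestinal tumours and intestinal epithelial cells with and without the transcription factor Stat3. The genes were taken by symbol from the deposited array table, with the probe set of the highest mean over the 18 arrays standing for a gene that had more than 1. All 32 were on the platform, out of 19938 genes with a named probe set, and all 32 were among the 17316 genes that passed the filter on low values and were tested. The series asked whether Stat3 is needed for tumour progression in APCmin mice, in which a mutated Apc allele activates WNT signalling.

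The 6 groups had 3 arrays each. Stat3-deleted (Stat3-/-) male tumours were replicates 10 to 12 and control (Stat3fl/fl) male tumours were replicates 7 to 9. Stat3-deleted female tumours were replicates 16 to 18 and control female tumours were replicates 13 to 15. Stat3-deleted epithelial cells were replicates 4 to 6 and control epithelial cells were replicates 1 to 3. Per the series text, deletion came from a Cre recombinase under the Villin promoter acting on floxed Stat3 alleles, so it is limited to cells in which that promoter is active, mainly epithelium, and controls carried the floxed alleles. The same text places the mice on the APCmin/+ background. The labels give no age, and for the epithelial cells they give no sex and no Apc genotype. The sample descriptions call every sample, epithelial cells included, a tumour induced in the colon and rectum with azoxymethane and dextran sulfate, whereas the series text describes an inherited tendency to tumours chiefly of the small intestine. The gut segment of each tumour is therefore not known from the labels. The labels do not tie any array to an animal of its own, and the p-values reflect only how far these samples scatter, and that scatter may be technical.

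In beta-oxidation, a fatty acid bound to coenzyme A is shortened step by step inside mitochondria, and each round yields acetyl-CoA and electrons for the respiratory chain. Long chains enter the organelle bound to carnitine, while very long and branched chains are first shortened in peroxisomes. PPARs are nuclear receptors that bind fatty acids and, paired with a retinoid X receptor, switch on many of these genes. In the small intestine, absorptive enterocytes take up dietary fat and are known to express both the oxidation enzymes and PPAR alpha.

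Stat3, the deleted gene, had log2 levels of 7.73 to 8.46 in the 9 Stat3-deleted arrays and 9.74 to 10.35 in the 9 control arrays, as the labels name them, although whether its probes lie in the deleted part is not known here. The epithelial adhesion gene Epcam lay between 11.38 and 11.96 in every array, tumours included, while of the 9 epithelial genes in its list 2 rose and 2 fell in Stat3-deleted tumours and 2 rose and 4 fell in control tumours, with list means of 10.95 and 10.96 in replicates 9 and 15 and 11.23 to 11.72 in the other arrays. Control tumour replicates 9 and 15 stood apart. Their Hoxd13, a gene of the hindgut, was at 8.25 and 9.10, against 4.82 to 5.59 in the other tumours, and their Gata4, a factor of the proximal intestine, at 6.92 and 6.84, against 8.86 to 9.86 there. The mean over 10 colon genes was 7.78 and 7.67 in them, 6.01 to 7.22 in the other tumours and 7.08 to 7.46 in epithelial cells. Not all 10 were higher in them: the largest fall in control tumours was -2.93 with these arrays and -2.61 without. The mean over 8 small intestine genes was 6.93 and 7.14 in them, against 7.47 to 9.13 in the other tumours. Tumour results are therefore given with and without these 2 arrays. In the epithelial cells, the mean over 12 T and NK cell genes was 9.06, 7.87 and 7.45 in Stat3-deleted replicates 4, 5 and 6 and 6.83, 6.79 and 7.36 in control replicates 1, 2 and 3, so that every Stat3-deleted array lay above every control array.

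Values are the authors' log2 expression values, on which a difference of 1 is a doubling. Differences are tumour minus epithelial cells or Stat3-deleted minus control, with the standard error (SE) of limma's fit over all 18 arrays and a p-value adjusted over the 17316 genes by the Benjamini-Hochberg method, and a gene passed when that p was under 0.05. Genes counted below at an unadjusted p under 0.05 did not pass. Those counts have no share of all tested genes beside them, except for the difference of deletion effects between sexes. They are not read against other genes. Levels of different genes come from different probes and are not compared. All 32 genes lay above the 25th percentile of their array in every array, and 27 lay above the array median in every array.

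In control mice, 17 of the 32 fatty acid oxidation and PPAR genes (53.1%) fell in tumours against epithelial cells. Of the rest, 0 rose and 15 did not pass. Of all tested genes, 35.3% fell and 30.4% rose. The median log2 difference was -0.63 over the 32 genes and -0.08 over all tested genes. The 17 falls had log2 differences from -0.45 to -2.36, with a median of -0.88. They were led by Ehhadh and Acaa1b of the peroxisome, by Ppargc1a, a coactivator of PPARs and of mitochondrial genes, by Cd36, a fatty acid translocase of the cell surface, and by Crat, which moves short acyl groups between carnitine and coenzyme A. Without replicates 9 and 15, 13 of the 32 fell and 0 rose, against 30.0% of all tested genes that fell and 27.7% that rose. The median was then -0.50 over the 32 genes and -0.09 over all tested genes. Crot, Hadha, Etfb and Cd36 no longer passed.

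Arrays of the control groups did not overlap for 15 genes, all lower in tumours, against 26.3% of all tested genes that were lower without overlap. Leaving out replicates 9 and 15 left the same number of 15 lower, against 28.2% of all genes, and 1, Acadl, was then higher without overlap, against 26.3% of all genes. The mean over the 32 genes was 8.30 to 8.97 in the control tumours and 9.17 to 9.44 in control epithelial cells. Replicates 9 and 15 had the lowest of these means, 8.30 and 8.36.

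In Stat3-deleted mice the same comparison of tumours with epithelial cells gave 9 falls (28.1%) and 2 rises (6.25%) among the 32 genes. Of all tested genes, 36.2% fell and 30.3% rose, so both shares were below those of all genes. The median log2 difference was -0.33, with -0.07 over all tested genes. The 2 that rose were Cpt1a, which controls the entry of long chains into mitochondria, and Acadl, the long-chain acyl-CoA dehydrogenase. Of the 9 that fell in Stat3-deleted tumours, 8 also fell in control tumours, which is 88.9% of the deleted list and 47.1% of the control list; over all tested genes the shares were 80.9% and 82.9%. The ninth was Angptl4. The arrays did not overlap for 10 genes that were lower, against 28.8% of all genes, and for Acadl, which was higher, against 27.1%. Whether the drop differed between genotypes was tested as the deletion effect in tumours minus that in epithelial cells, and 0 of the 32 genes passed, against 0.0116% of all genes in either direction. At an unadjusted p under 0.05 there were 3, namely Crat, Acadl and Acads.

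**Figure D1:**
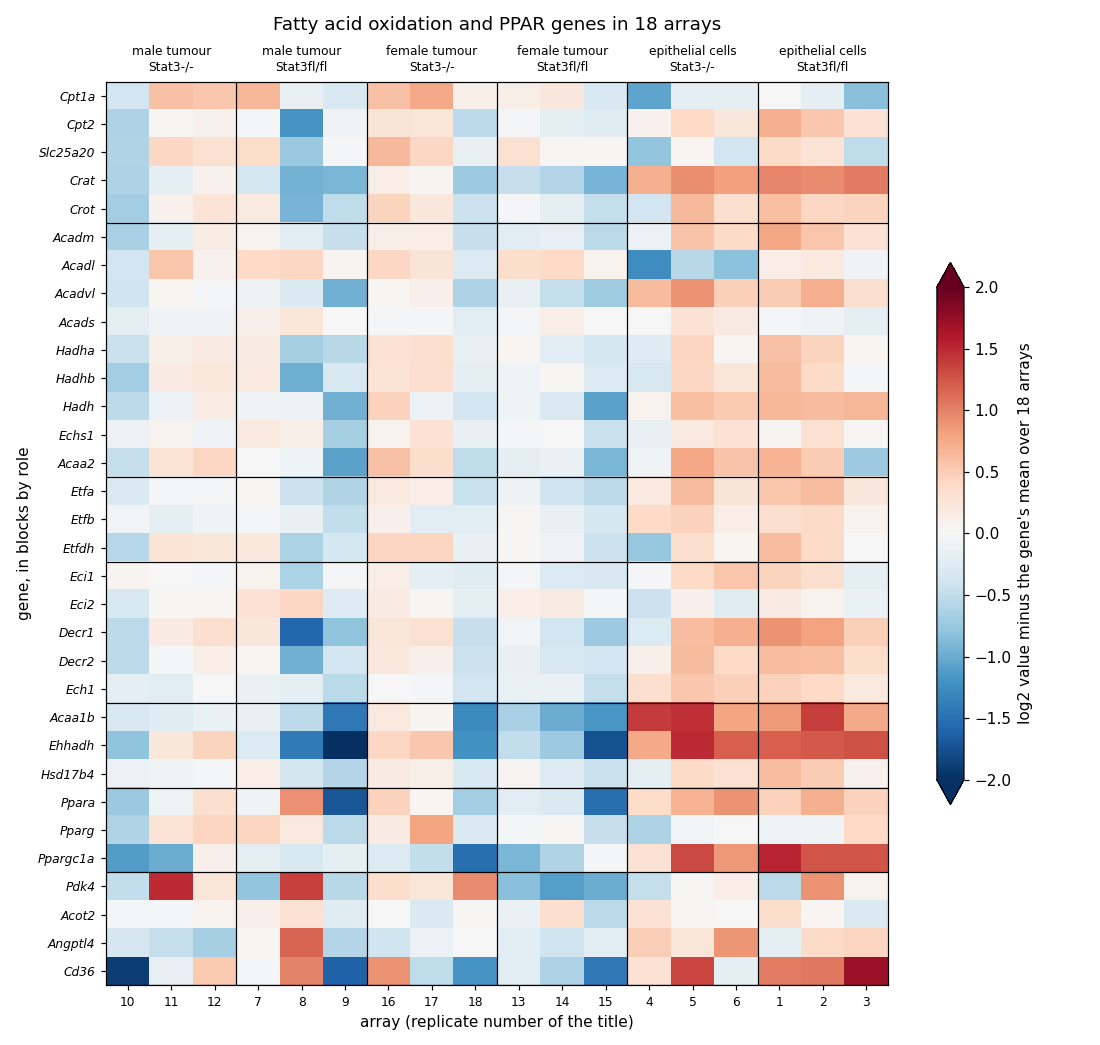
Colour gives the log2 value of each of the 32 genes (rows, in blocks by role) in each of the 18 arrays (columns, by replicate number) minus the mean of that gene over the 18 arrays, with the scale ending at 2 in either direction. The peroxisomal genes Acaa1b and Ehhadh, Crat and Ppargc1a are above their mean in all 6 epithelial columns. Of the 12 tumour columns 2, 4, 3 and 1 lie above it for these genes in that order. Replicates 9 and 15 have the lowest means over the 32 genes, though not the lowest values for Ppargc1a.

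Mature enterocyte markers were also lower in tumours than in epithelial cells. All 18 measured markers of the villus or surface enterocyte fell in control tumours, with array means of 8.40 to 10.86 in control tumours and 12.40 to 12.63 in control epithelial cells. Their median log2 difference was -2.31. Without replicates 9 and 15 all 18 still fell, with a median of -1.39. In Stat3-deleted mice 8 of the 18 fell, with array means of 10.07 to 11.43 in tumours and 12.14 to 12.39 in epithelial cells. Replicates 9 and 15 had the lowest enterocyte means of all arrays, 8.61 and 8.40. Some other arrays paired in this way and some did not. Replicates 10 and 18 had the lowest of both means among Stat3-deleted tumours. Replicate 4 had the lowest of both among epithelial cells, with 12.14 for the enterocyte markers and 8.89 for the 32 genes. Replicate 8 had the highest enterocyte mean of the control tumours, 10.86, but a mean over the 32 genes of 8.69. Its mean over the 5 carnitine genes, 8.52, was the lowest of all tumours. Replicate 3 had the highest enterocyte mean of the epithelial cells, 12.63, but the lowest mean over the 32 genes among control epithelial cells, 9.17. Markers of other cells rose in control tumours: 8 of 8 for blood endothelium, 9 of 10 for fibroblasts, 6 of 6 for smooth muscle and 9 of 10 for macrophages, and 9 of 10 WNT target and crypt base genes rose too. Without replicates 9 and 15 the rises in these lists were 8, 8, 6, 8 and 9, in that order. T and NK cell genes went the other way, with 0 rises and 11 falls among 12 in Stat3-deleted tumours and 0 rises and 5 falls in control tumours. In these bulk samples fewer cells of a type and less RNA per cell cannot be told apart, and the part of cell makeup in the results below was not tested. Adipocytes also use PPAR gamma and Cd36. Of their 5 tested markers 4 fell and 1, Fabp4, rose in each genotype, with medians of -0.65 in Stat3-deleted and -0.46 in control mice, and their defining gene Adipoq, which was not tested, lay at 3.15 to 3.98 in all 18 arrays, below the 25th percentile of every array.

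**Figure D2:**
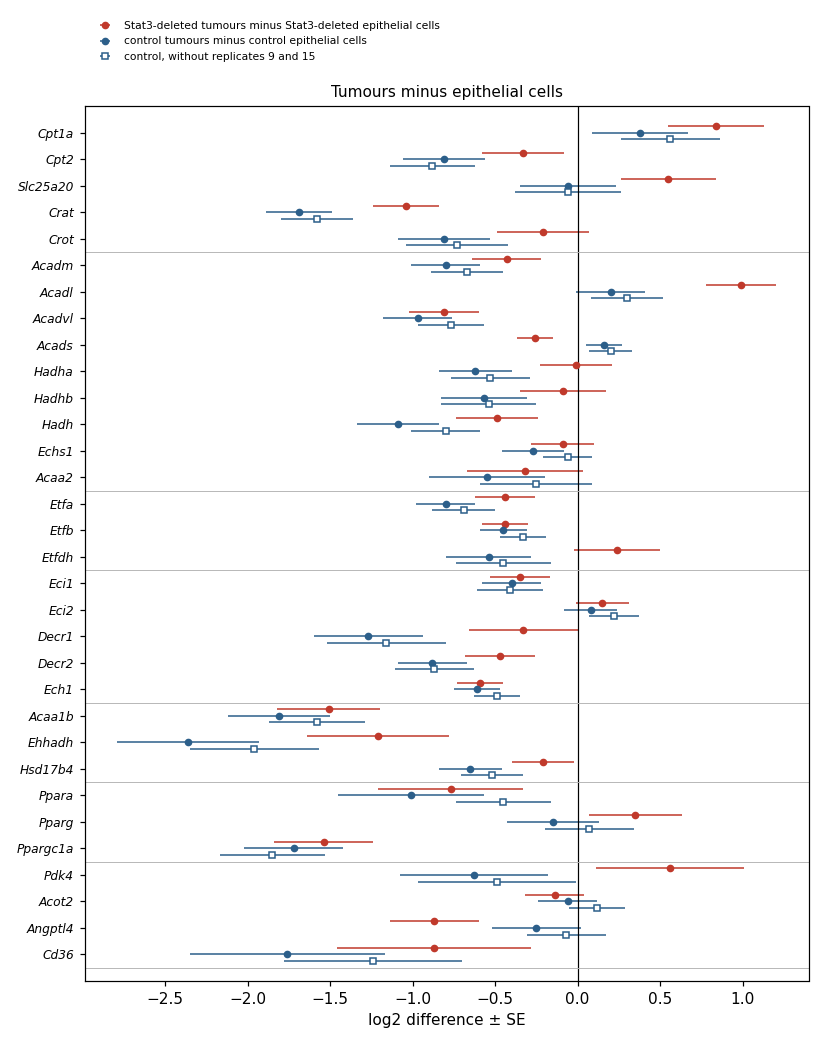
Points are log2 differences of tumour minus epithelial cells with their standard errors, for each of the 32 genes in blocks by role, in Stat3-deleted mice (red), in control mice (blue) and in control mice without replicates 9 and 15 (open squares). Ehhadh is furthest to the left in control mice at -2.36, and Acadl is furthest to the right in Stat3-deleted mice at 0.99.

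The carnitine system carries acyl groups across the mitochondrial membranes. Of its 5 genes, 3 fell in control tumours, namely Cpt2, Crat and Crot, while in Stat3-deleted tumours Crat fell and Cpt1a rose. Crat, the carnitine acetyltransferase, had log2 levels of 8.43, 8.88 and 9.14 in Stat3-deleted male tumours against 8.70, 8.10 and 8.14 in control male tumours, and 9.18, 9.11 and 8.33 in Stat3-deleted female tumours against 8.59, 8.46 and 8.13 in control female tumours. The corresponding levels were 9.77, 9.99 and 9.88 in Stat3-deleted epithelial cells and 10.03, 10 and 10.09 in control epithelial cells. Every tumour array lay below every epithelial array of its genotype. The log2 difference of tumour minus epithelial cells was -1.04 ± 0.20 (SE, adjusted p = 4.66e-04) in Stat3-deleted mice and -1.69 ± 0.20 (SE, adjusted p = 6.74e-06) in control mice, a 2.05-fold and a 3.22-fold lower level.

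Cpt1a, the enzyme of the outer membrane that links long chains to carnitine, showed the other direction. Its log2 levels were 9.07, 10.03 and 9.98 in Stat3-deleted male tumours against 10.12, 9.30 and 9.14 in control male tumours, and 10.03, 10.21 and 9.55 in Stat3-deleted female tumours against 9.56, 9.68 and 9.15 in control female tumours. They were 8.40, 9.26 and 9.27 in Stat3-deleted epithelial cells and 9.44, 9.27 and 8.61 in control epithelial cells. The arrays overlapped in both genotypes. The tumour difference was 0.84 ± 0.29 (SE, adjusted p = 0.0170) in Stat3-deleted mice, and 0.38 ± 0.29 (SE, adjusted p = 0.244) in control mice, which did not pass. Leaving out replicate 4 gave 0.55 (adjusted p = 0.139) in Stat3-deleted mice, and male tumours alone gave 0.72 (adjusted p = 0.0757). Cpt2, which hands the chains back to coenzyme A at the inner membrane, had a difference of -0.33 (adjusted p = 0.249) in Stat3-deleted mice and -0.81 (adjusted p = 0.00968) in control mice. Crot, which treats medium chains in peroxisomes, had -0.21 (adjusted p = 0.518) in Stat3-deleted mice and -0.81 (adjusted p = 0.0179) in control mice, with -0.73 (adjusted p = 0.0527) in control mice when replicates 9 and 15 were left out and -0.75 (adjusted p = 0.0603) when replicate 1 was. Slc25a20, the translocase that exchanges acylcarnitines for carnitine, passed in neither genotype, with log2 differences of 0.55 (adjusted p = 0.103) in Stat3-deleted mice and -0.06 (adjusted p = 0.872) in control mice.

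Among the 9 enzymes of the mitochondrial spiral, 4 fell in control tumours, namely Acadm, Acadvl, Hadha and Hadh. In Stat3-deleted tumours Acadvl fell and Acadl rose. Acyl-CoA dehydrogenases open each round, and they divide the chain lengths between them. Acadvl, for very long chains, had log2 levels of 9.0, 9.45 and 9.36 in Stat3-deleted male tumours against 9.30, 9.12 and 8.44 in control male tumours, and 9.45, 9.51 and 8.79 in Stat3-deleted female tumours against 9.26, 8.93 and 8.69 in control female tumours. Its levels were 10.04, 10.30 and 9.88 in Stat3-deleted epithelial cells and 9.91, 10.13 and 9.73 in control epithelial cells. No tumour array reached the epithelial arrays of its genotype. The log2 difference was -0.81 ± 0.21 (SE, adjusted p = 0.00325) in Stat3-deleted mice and -0.97 ± 0.21 (SE, adjusted p = 0.00108) in control mice. Acadm, for medium chains, differed by -0.43 (adjusted p = 0.0790) in Stat3-deleted mice and by -0.80 (adjusted p = 0.00376) in control mice.

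Acadl, for long chains, had log2 levels of 9.70, 10.64 and 10.17 in Stat3-deleted male tumours against 10.47, 10.49 and 10.14 in control male tumours, and 10.49, 10.34 and 9.80 in Stat3-deleted female tumours against 10.43, 10.48 and 10.15 in control female tumours. The epithelial levels were 8.84, 9.52 and 9.25 in Stat3-deleted epithelial cells and 10.21, 10.28 and 10 in control epithelial cells. The Stat3-deleted epithelial cells were the lowest group, with no overlap with any other group. The tumour difference was 0.99 ± 0.21 (SE, adjusted p = 7.67e-04) in Stat3-deleted mice, a 1.98-fold higher level, and 0.20 ± 0.21 (SE, adjusted p = 0.414) in control mice. The deletion effect in tumours minus that in epithelial cells was 0.79 ± 0.29 (SE, adjusted p = 0.503) for Acadl and did not pass. Acads, for short chains, passed in neither comparison, with differences of -0.26 (adjusted p = 0.0549) and 0.16 (adjusted p = 0.221) in Stat3-deleted and control mice.

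The later steps add water, oxidise again and split off acetyl-CoA. Hadh, the dehydrogenase for short and medium hydroxyacyl chains, had log2 levels of 10.65, 11.05 and 11.32 in Stat3-deleted male tumours against 11.08, 11.07 and 10.21 in control male tumours, and 11.63, 11.06 and 10.79 in Stat3-deleted female tumours against 11.09, 10.88 and 10.10 in control female tumours. In the epithelial cells they were 11.24, 11.77 and 11.70 in Stat3-deleted epithelial cells and 11.84, 11.80 and 11.83 in control epithelial cells. Control tumours lay below all control epithelial arrays, whereas replicate 16 of the Stat3-deleted tumours, at 11.63, lay within the range of the Stat3-deleted epithelial arrays. The log2 difference was -0.49 ± 0.25 (SE, adjusted p = 0.0972) in Stat3-deleted mice and -1.09 ± 0.25 (SE, adjusted p = 0.00174) in control mice. Hadha, the larger subunit of the mitochondrial trifunctional protein, differed by -0.01 (adjusted p = 0.960) in Stat3-deleted mice and -0.62 (adjusted p = 0.0215) in control mice, and in control mice by -0.53 (adjusted p = 0.0715) without replicates 9 and 15, by -0.50 (adjusted p = 0.0993) without replicate 1 and by -0.57 (adjusted p = 0.0733) without replicate 2. Its partner subunit Hadhb differed by -0.09 (adjusted p = 0.762) and -0.57 (adjusted p = 0.0672) in Stat3-deleted and control mice. Echs1, a hydratase, and Acaa2, the mitochondrial thiolase, passed in neither, with differences of -0.09 and -0.32 in Stat3-deleted mice and -0.27 and -0.55 in control mice.

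Electrons from the dehydrogenases leave through the electron transfer flavoprotein. Its subunits Etfa and Etfb fell in tumours of both genotypes, and Etfdh, the oxidoreductase that passes the electrons to ubiquinone, passed in neither. Etfa had log2 levels of 9.86, 10.12 and 10.13 in Stat3-deleted male tumours against 10.19, 9.72 and 9.55 in control male tumours, and 10.34, 10.28 and 9.70 in Stat3-deleted female tumours against 10.05, 9.76 and 9.63 in control female tumours. Its epithelial levels were 10.35, 10.79 and 10.41 in Stat3-deleted epithelial cells and 10.71, 10.77 and 10.38 in control epithelial cells. All tumour arrays were below the epithelial arrays of the same genotype. The log2 difference of Etfa was -0.44 ± 0.18 (SE, adjusted p = 0.0422) in Stat3-deleted mice and -0.80 ± 0.18 (SE, adjusted p = 0.00149) in control mice. That in Stat3-deleted mice did not pass under 7 of 17 alternatives, with adjusted p up to 0.202, among them leaving out replicates 5, 6, 10, 11 or 18. Etfb differed by -0.44 (adjusted p = 0.0117) and -0.45 (adjusted p = 0.0114) in Stat3-deleted and control mice, with -0.33 (adjusted p = 0.0565) in control mice without replicates 9 and 15. Without replicate 5 the adjusted p of Etfb was 0.0548 in Stat3-deleted mice, and without replicate 2 it was 0.0578 in control mice. Etfdh differed by 0.24 (adjusted p = 0.425) and -0.54 (adjusted p = 0.0797).

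The 5 auxiliary enzymes prepare unsaturated fatty acids for the spiral. Of these, Decr1, Decr2 and Ech1 fell in control tumours and Ech1 alone fell in Stat3-deleted tumours. Decr1, the mitochondrial dienoyl-CoA reductase, had log2 levels of 8.56, 9.25 and 9.42 in Stat3-deleted male tumours against 9.31, 7.51 and 8.27 in control male tumours, and 9.32, 9.39 and 8.62 in Stat3-deleted female tumours against 9.03, 8.69 and 8.35 in control female tumours. The epithelial levels were 8.80, 9.70 and 9.79 in Stat3-deleted epithelial cells and 9.97, 9.88 and 9.55 in control epithelial cells. The control groups did not overlap, and the Stat3-deleted groups did. The lowest array was control male replicate 8, at 7.51. The difference of Decr1 was -0.33 ± 0.33 (SE, adjusted p = 0.382) in Stat3-deleted mice and -1.27 ± 0.33 (SE, adjusted p = 0.00370) in control mice. Decr2, the peroxisomal reductase, differed by -0.47 (adjusted p = 0.0576) and -0.88 (adjusted p = 0.00211), and Ech1, a dienoyl-CoA isomerase, by -0.59 (adjusted p = 0.00185) and -0.61 (adjusted p = 0.00151), in Stat3-deleted and control mice. The enoyl-CoA isomerases Eci1 and Eci2 passed in neither genotype, with differences of -0.35 and 0.15 in Stat3-deleted mice and -0.40 and 0.08 in control mice.

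All 3 peroxisomal enzymes fell in control tumours, and Acaa1b and Ehhadh fell in Stat3-deleted tumours. Ehhadh, the bifunctional hydratase and dehydrogenase of the peroxisome, had log2 levels of 7.79, 8.83 and 9.05 in Stat3-deleted male tumours against 8.32, 7.19 and 6.50 in control male tumours, and 9.01, 9.14 and 7.39 in Stat3-deleted female tumours against 8.11, 7.87 and 6.86 in control female tumours. Its levels were 9.35, 10.09 and 9.79 in Stat3-deleted epithelial cells and 9.79, 9.83 and 9.87 in control epithelial cells. Tumour arrays lay between 6.50 and 9.14, all below the epithelial arrays of their genotype. The difference was -1.21 ± 0.43 (SE, adjusted p = 0.0201) in Stat3-deleted mice, a 2.31-fold lower level, and -2.36 ± 0.43 (SE, adjusted p = 2.44e-04) in control mice, a 5.12-fold lower level. Replicates 9 and 15, at 6.50 and 6.86, were the lowest, and without them the difference in control mice was -1.96 (adjusted p = 8.74e-04). In Stat3-deleted mice the adjusted p was 0.0845 without replicate 5, 0.0557 without replicate 6 and 0.0517 with male tumours alone.

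Acaa1b, a peroxisomal thiolase, had log2 levels of 6.31, 6.39 and 6.49 in Stat3-deleted male tumours against 6.48, 6.10 and 5.20 in control male tumours, and 6.82, 6.68 and 5.35 in Stat3-deleted female tumours against 5.98, 5.63 and 5.47 in control female tumours. The epithelial levels were 8.03, 8.09 and 7.42 in Stat3-deleted epithelial cells and 7.48, 8.01 and 7.39 in control epithelial cells. The groups did not overlap in either genotype. Its difference was -1.51 ± 0.31 (SE, adjusted p = 6.19e-04) in Stat3-deleted mice and -1.81 ± 0.31 (SE, adjusted p = 1.39e-04) in control mice. The near-identical gene Acaa1a, whose probes may share signal with it, fell as well, with differences of -1.41 (adjusted p = 5.36e-06) and -1.56 (adjusted p = 1.30e-06) in Stat3-deleted and control mice. Hsd17b4, the other bifunctional enzyme of peroxisomes, differed by -0.21 (adjusted p = 0.347) in Stat3-deleted mice and -0.65 (adjusted p = 0.00728) in control mice.

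**Figure D3:**
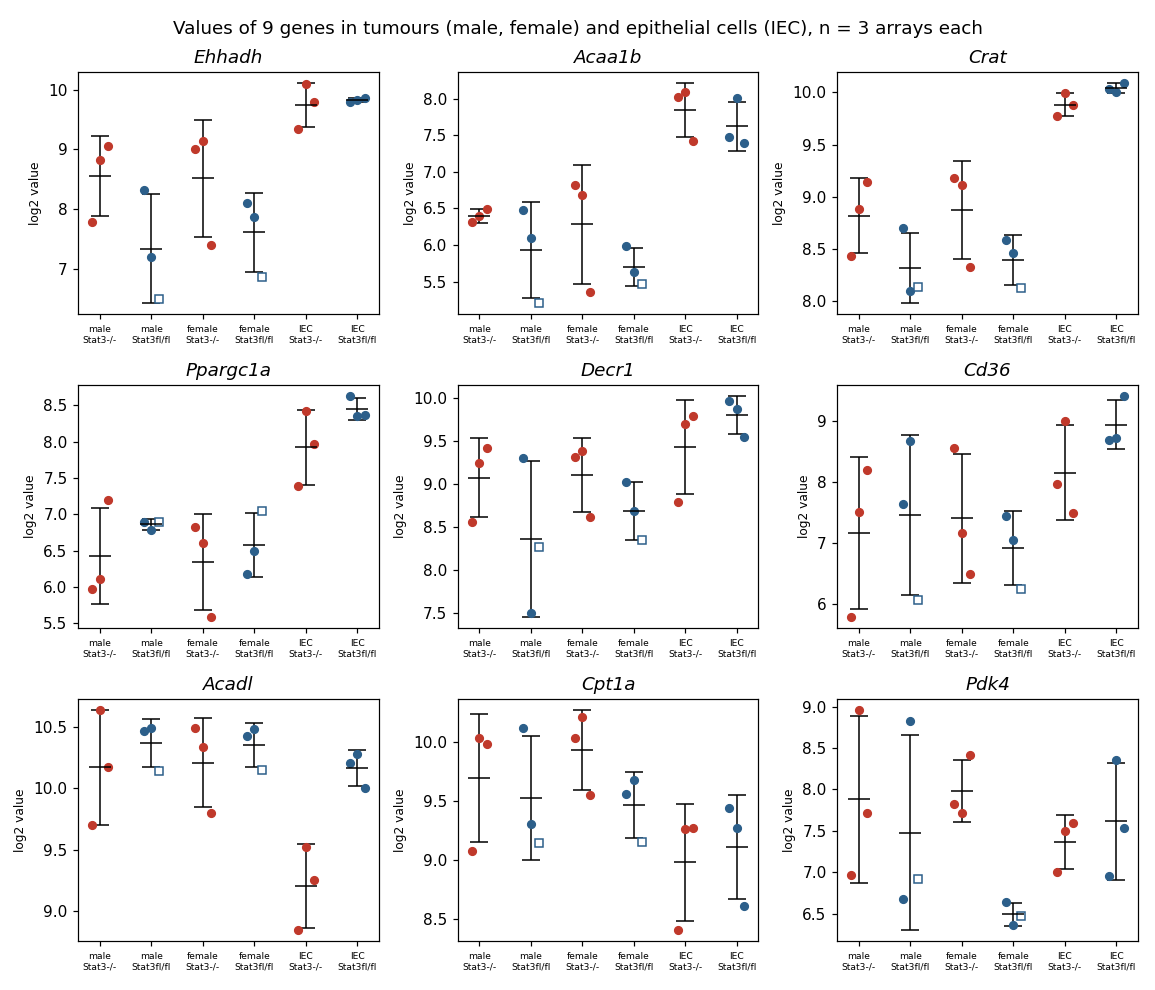
Each panel shows the log2 values of 1 gene in the 6 groups, with Stat3-deleted arrays in red, control arrays in blue, control replicates 9 and 15 as open squares, and a bar for the mean ± SD of 3 arrays. Ehhadh, Acaa1b, Crat and Ppargc1a are lower in tumours of both genotypes, and Acadl is lowest in Stat3-deleted epithelial cells.

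Of the regulators, Ppargc1a fell in both genotypes and the receptors passed in neither in the fit reported. Ppargc1a had log2 levels of 5.98, 6.11 and 7.19 in Stat3-deleted male tumours against 6.90, 6.78 and 6.90 in control male tumours, and 6.82, 6.61 and 5.59 in Stat3-deleted female tumours against 6.18, 6.50 and 7.05 in control female tumours. The levels were 7.39, 8.42 and 7.96 in Stat3-deleted epithelial cells and 8.62, 8.35 and 8.36 in control epithelial cells. No tumour array reached an epithelial array of its genotype. Its difference was -1.54 ± 0.30 (SE, adjusted p = 4.49e-04) in Stat3-deleted mice, a 2.91-fold lower level, and -1.72 ± 0.30 (SE, adjusted p = 1.79e-04) in control mice, a 3.30-fold lower level. Replicates 9 and 15, at 6.90 and 7.05, were among the higher control tumours for this gene, unlike for the peroxisomal enzymes. A second probe set of the gene gave 4.62 to 6.15 in Stat3-deleted tumours and 5.18, 7.45 and 6.91 in Stat3-deleted epithelial cells. In that probe set the Stat3-deleted groups overlapped, through replicate 4 at 5.18. The control groups did not overlap in it, with 4.87 to 6.32 in tumours and 7.10 to 7.77 in epithelial cells.

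Ppara, the receptor that drives oxidation genes in fasting, had log2 levels of 6.63, 7.28 and 7.69 in Stat3-deleted male tumours against 7.30, 8.28 and 5.65 in control male tumours, and 7.83, 7.40 and 6.67 in Stat3-deleted female tumours against 7.16, 7.08 and 5.86 in control female tumours. Its epithelial levels were 7.74, 8.06 and 8.26 in Stat3-deleted epithelial cells and 7.82, 8.07 and 7.82 in control epithelial cells. The control tumours spread from 5.65 in replicate 9 to 8.28 in replicate 8, a wider span than in any other group. The difference was -0.77 ± 0.44 (SE, adjusted p = 0.129) in Stat3-deleted mice and -1.01 ± 0.44 (SE, adjusted p = 0.0518) in control mice, and -0.45 (adjusted p = 0.194) in control mice without replicates 9 and 15. In control mice Ppara passed with quantile normalisation (adjusted p = 0.0242), with array weights (0.00392) and without replicate 8 (0.00625), 13 (0.0425) or 14 (0.0473). In Stat3-deleted mice it passed with quantile normalisation (adjusted p = 0.0419), with array weights (0.0190) and with only the compared groups fitted (0.0280). Ppara was lower in tumours in each of these fits and passed under no other alternative. Pparg, the receptor of fat storage, had log2 levels of 8.16, 9.03 and 9.19 in Stat3-deleted male tumours against 9.18, 8.95 and 8.22 in control male tumours, and 8.92, 9.55 and 8.47 in Stat3-deleted female tumours against 8.72, 8.78 and 8.30 in control female tumours. Those in the epithelial cells were 8.13, 8.70 and 8.76 in Stat3-deleted epithelial cells and 8.67, 8.69 and 9.15 in control epithelial cells. Tumour and epithelial arrays overlapped, and the difference was 0.35 (adjusted p = 0.267) in Stat3-deleted mice and -0.15 (adjusted p = 0.652) in control mice.

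Among the 4 PPAR target genes outside the oxidation steps, Cd36 fell in control tumours and Angptl4 in Stat3-deleted tumours. Cd36 had log2 levels of 5.79, 7.52 and 8.20 in Stat3-deleted male tumours against 7.64, 8.67 and 6.06 in control male tumours, and 8.57, 7.17 and 6.49 in Stat3-deleted female tumours against 7.45, 7.06 and 6.25 in control female tumours. The epithelial levels were 7.97, 9.01 and 7.5 in Stat3-deleted epithelial cells and 8.70, 8.73 and 9.41 in control epithelial cells. Control tumours lay below control epithelial cells, and the Stat3-deleted groups overlapped. The difference was -0.87 ± 0.59 (SE, adjusted p = 0.199) in Stat3-deleted mice and -1.76 ± 0.59 (SE, adjusted p = 0.0158) in control mice, a 3.38-fold lower level that became -1.24 (adjusted p = 0.0608) without replicates 9 and 15. Without replicate 3 it was -1.53 (adjusted p = 0.0757), and with male tumours alone -1.49 (adjusted p = 0.0738). Angptl4, a secreted inhibitor of lipoprotein lipase, had levels of 6.24, 6.10 and 5.91 in Stat3-deleted male tumours against 6.59, 7.73 and 5.99 in control male tumours, and 6.18, 6.45 and 6.57 in Stat3-deleted female tumours against 6.35, 6.18 and 6.34 in control female tumours. They were 7.07, 6.82 and 7.45 in Stat3-deleted epithelial cells and 6.38, 6.96 and 7.0 in control epithelial cells. Its difference was -0.87 ± 0.27 (SE, adjusted p = 0.00991) in Stat3-deleted mice and -0.25 ± 0.27 (SE, adjusted p = 0.422) in control mice, where replicate 8 at 7.73 was the highest tumour array. Without replicate 6 the difference in Stat3-deleted mice was -0.70 (adjusted p = 0.0621).

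Pdk4, a kinase that shuts off pyruvate dehydrogenase, and Acot2, a mitochondrial thioesterase, passed in neither genotype. Pdk4 differed by 0.56 (adjusted p = 0.274) in Stat3-deleted mice and -0.63 (adjusted p = 0.223) in control mice, and Acot2 by -0.14 (adjusted p = 0.501) and -0.06 (adjusted p = 0.778). The near-identical gene Acot1, whose probes may share signal with Acot2, differed by 0.16 (adjusted p = 0.451) and 0.78 (adjusted p = 0.00179) in Stat3-deleted and control mice, so that it rose in control tumours.

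Other genes of fatty acid handling were counted in a list of 81, of which 70 were on the platform and 68 were tested. In Stat3-deleted tumours 30 fell (44.1%) and 12 rose (17.6%), against 36.2% and 30.3% of all tested genes. In control tumours 37 fell (54.4%) and 14 rose (20.6%), against 35.3% and 30.4% of all, and without replicates 9 and 15 34 fell and 13 rose, against 30.0% and 27.7%. Acot12, a cytosolic acetyl-CoA thioesterase, had a log2 difference of -2.56 in Stat3-deleted mice and -3.82 in control mice. The fatty acid transport proteins followed, with -1.64 and -3.29 for Slc27a2 and -2.0 and -2.57 for Slc27a4, again in Stat3-deleted and control mice. The lipid droplet gene Cidec gave -1.67 and -2.48 and the lipase Lipe -1.77 and -2.10. All of these passed with all arrays in both genotypes, and Slc27a2 in Stat3-deleted mice had an adjusted p of 0.0664 without replicate 5 and of 0.0529 with male tumours alone. Fabp2, the intestinal fatty acid binding protein, fell in control tumours, with -2.49 (adjusted p = 0.00783), or -2.07 (adjusted p = 0.0504) with male tumours alone, and had -1.39 (adjusted p = 0.104) in Stat3-deleted tumours. Esrra, a nuclear receptor of mitochondrial genes, fell in Stat3-deleted tumours, with -1.53 ± 0.21 (SE, adjusted p = 3.96e-05).

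Among the rises were genes of several functions, and other members of the same families fell. Acsl4, an acyl-CoA synthetase for polyunsaturated chains, had a log2 difference of 3.04 ± 0.26 (SE, adjusted p = 3.90e-07) in Stat3-deleted mice and 3.71 ± 0.26 (SE, adjusted p = 3.53e-08) in control mice. Acaca, the carboxylase that makes malonyl-CoA for synthesis, had 1.86 and 2.14. Acadsb, a dehydrogenase of branched short chains, had 1.78 and 1.63, and Acsm3, a medium-chain synthetase, 1.42 and 1.46. Fabp4, a binding protein of adipocytes, macrophages and capillary endothelium, had 1.18 and 1.28, and Lpl, the lipoprotein lipase, 0.86 and 1.28. Each of these 6 passed in both genotypes, but Lpl in Stat3-deleted mice had 0.69 (adjusted p = 0.0778) without replicate 5 and 0.58 (adjusted p = 0.143) with male tumours alone. The synthetase Acsl5 had -0.70 (adjusted p = 0.0847) and -1.51 (adjusted p = 0.00149), Acsl6, another synthetase, -0.65 (adjusted p = 5.01e-04) and -0.33 (adjusted p = 0.0356), and Acacb, the mitochondrial counterpart of Acaca, -0.35 (adjusted p = 0.0204) and -0.37 (adjusted p = 0.0177), in Stat3-deleted and control mice. These 3 were picked after their values were seen.

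Deletion of Stat3 in the epithelial cells gave 0 calls among the 32 genes, against 0.0231% of all tested genes, and at an unadjusted p under 0.05 there was 1, Acadl. Acadl had a log2 difference of -0.96 ± 0.24 (SE, adjusted p = 0.546), and its 3 Stat3-deleted arrays all lay below its 3 control arrays. The members' median log2 difference was -0.19, with 10 of 32 above 0. Arrays did not overlap for Crat, Acadl and Hadh, which were lower, against 7.81% of all genes, and for Acads, which was higher, against 6.30%. Stat3-deleted replicate 4 was the lowest epithelial array for many of the genes, with a mean over the 32 of 8.89, against 9.17 to 9.44 in the other 5 arrays. Without it the median was -0.02. T and NK cell genes moved with this comparison: 12 of 12 had a difference above 0, with a median of 1.28, 10 had an unadjusted p under 0.05 and 0 passed, and replicate 4 had their highest mean. The part of these cells in the differences, those of Acadl, Crat and Hadh included, was not tested. Cd36 had a difference of -0.79 (adjusted p = 0.808) and Ppargc1a of -0.52 (adjusted p = 0.759).

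In tumours of both sexes combined, deletion of Stat3 also gave 0 calls among the 32 genes, against 0.710% of all tested genes, and 3 had an unadjusted p under 0.05. The median log2 difference was 0.23, with 26 of 32 above 0, and -0.04 over all tested genes. The 3 were Ehhadh at 1.06 ± 0.35 (SE, adjusted p = 0.203), Crat at 0.49 ± 0.17 (SE, adjusted p = 0.213) and Pdk4 at 0.94 ± 0.37 (SE, adjusted p = 0.290). For no gene were the 6 Stat3-deleted and the 6 control arrays without overlap, against 0.219% of all genes that were higher and 1.14% that were lower without overlap. Without replicates 9 and 15 there were again 0 calls, against 1.17% of all genes, and the median was 0.12 with 20 of 32 above 0. Without replicate 18 of the Stat3-deleted tumours, Crat and Ehhadh passed, with differences of 0.63 (adjusted p = 0.0463) and 1.34 (adjusted p = 0.0448). No share of all tested genes is given for that fit, and these calls are not read against other genes. Without replicates 9 and 15 the differences were 0.66 (adjusted p = 0.554) for Ehhadh, 0.38 (adjusted p = 0.510) for Crat and 0.80 (adjusted p = 0.564) for Pdk4. Ppara and Cd36 turned to the other side of 0, with 0.36 and 0.10 over all arrays and -0.20 and -0.41 without the 2.

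Enterocyte markers were measured in the same comparison. Their median log2 difference of Stat3-deleted minus control tumours was 0.86, with 18 of 18 above 0 and 0 that passed, and without replicates 9 and 15 it was 0.15, with 11 of 18 above 0 and 0 that passed. Among the Stat3-deleted tumours, replicates 10 and 18 had the lowest means over the 32 genes, 8.43 and 8.52, and the lowest enterocyte means, 10.54 and 10.07. The part of enterocyte content in the deletion differences was not tested.

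**Figure D4:**
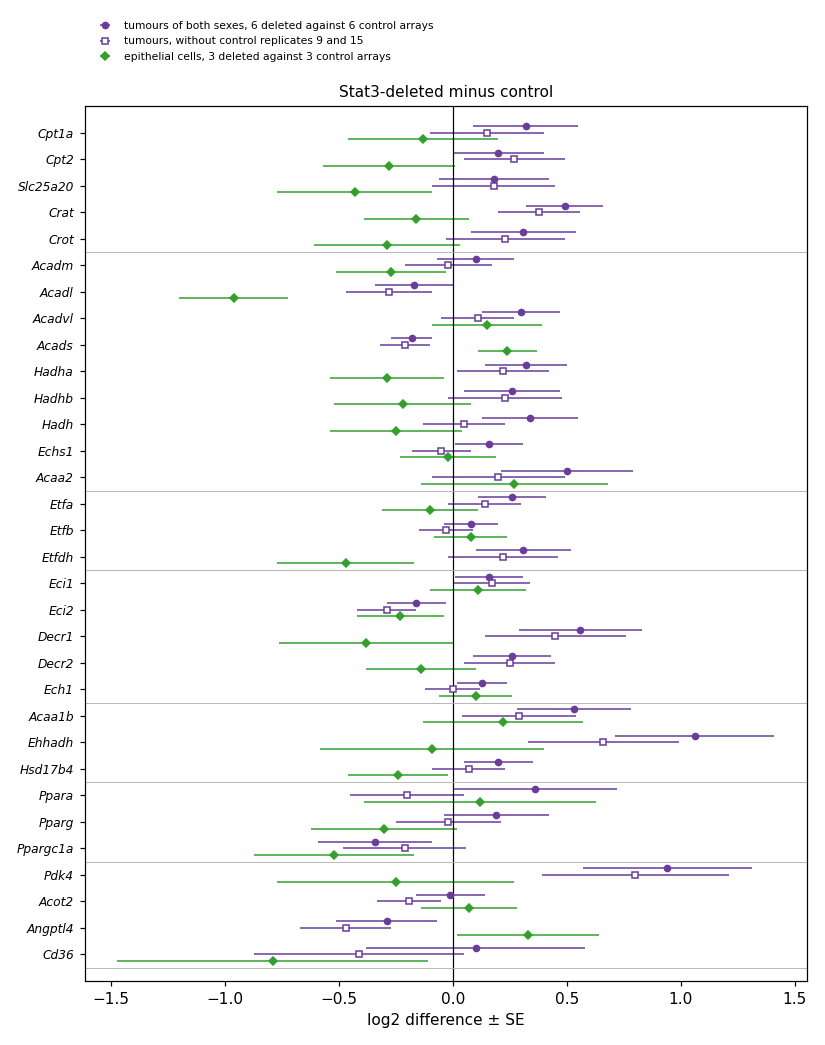
Points are log2 differences of Stat3-deleted minus control with their standard errors for the 32 genes in blocks by role, in tumours of both sexes (purple), in tumours without control replicates 9 and 15 (open squares) and in epithelial cells (green). Most tumour points lie right of 0 and most epithelial points left of it, Ehhadh at 1.06 in tumours and Acadl at -0.96 in epithelial cells are the furthest out of their set, and 0 of the 32 genes passed in either tissue.

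By sex, deletion gave 0 calls among the 32 genes in male tumours, against 0.231% of all tested genes, and 0 in female tumours, against 0.104%. At an unadjusted p under 0.05 there were 3 in males, namely Crat, Ehhadh and Angptl4, and 1 in females, Pdk4. The medians were 0.20 in males, with 24 of 32 above 0, and 0.27 in females, with 28 of 32 above 0. Without control replicates 9 and 15 they were 0.04, with 18 above 0, and 0.16, with 25 above 0. Pdk4 had log2 levels of 6.97, 8.96 and 7.71 in Stat3-deleted male tumours against 6.68, 8.83 and 6.92 in control male tumours, and 7.82, 7.71 and 8.41 in Stat3-deleted female tumours against 6.64, 6.37 and 6.47 in control female tumours. Its epithelial levels were 7.0, 7.5 and 7.60 in Stat3-deleted epithelial cells and 6.95, 8.36 and 7.54 in control epithelial cells. The female groups did not overlap, against 5.20% of all genes higher without overlap in females, and the male groups did. Its log2 difference was 0.40 ± 0.52 (SE, adjusted p = 0.973) in males and 1.49 ± 0.52 (SE, adjusted p = 0.719) in females. Acads was lower without overlap in Stat3-deleted males, with -0.23 (adjusted p = 0.768), against 8.03% of all genes lower without overlap there.

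Angptl4 had a log2 difference of -0.69 (adjusted p = 0.643) in males and 0.11 (adjusted p = 0.997) in females, and without control replicates 9 and 15 of -1.08 (adjusted p = 0.152) and 0.13 (adjusted p = 1.0). In males without control replicate 9, 5 genes were lower without overlap in Stat3-deleted tumours, namely Acads, Echs1, Eci2, Acot2 and Angptl4, against 13.3% of all genes. The difference of the deletion effects, female minus male, gave 0 calls among the 32 genes and 0 of the 17316 tested, where 162 had an unadjusted p under 0.05 and none of the 32 did. For Pdk4 it was 1.09 ± 0.73 (SE, adjusted p = 1.0) and for Angptl4 0.80 ± 0.44 (SE, adjusted p = 1.0). Male tumours against female tumours over both genotypes gave 0 calls among the 32, against 0.0231% of all tested genes, with 0 of the 32 at an unadjusted p under 0.05 and a median of -0.02.

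Promoter sequences were at hand for 27 of the 32 genes, as 29 windows of 250 bases before and 50 after the start site in RefSeq, mouse build GRCm38.p6. They were searched on both strands for the DR1 element, a direct repeat of AGGTCA with a single base between the copies, to which PPARs bind with their partner receptor, with at most 2 mismatches, and for the STAT half-site pair TTCNNNGAA. DR1 letters were in 4 of the 29 windows (13.8%), those of Cd36, Echs1, Etfa and Slc25a20, against 3.86% of 32851 windows of all genes. With at most 1 mismatch they were in 0 of the 29 and in 0.554% of all. The STAT letters were in 3 of the 29 (10.3%), those of Cpt2, Hadha and Hadhb, against 8.30% of all windows. A match describes the letters of the window and not a bound site.

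Shown here are the 250 bases upstream of 2 genes with DR1 letters that fell in control tumours, and of Hadha with its STAT letters, each 5′ to 3′ on the strand of the gene with the match in capitals. The match in Cd36 and Etfa runs on the opposite strand. Cd36 is at chr5:17835897-17836146 (minus strand), Etfa at chr9:55512244-55512493 (minus strand) and Hadha at chr5:30154981-30155230 (minus strand).
Cd36: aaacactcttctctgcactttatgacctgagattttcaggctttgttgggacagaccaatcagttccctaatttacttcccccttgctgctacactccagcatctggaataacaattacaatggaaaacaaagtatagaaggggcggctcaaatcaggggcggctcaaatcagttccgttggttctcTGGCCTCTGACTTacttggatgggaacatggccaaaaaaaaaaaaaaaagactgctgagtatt
Etfa: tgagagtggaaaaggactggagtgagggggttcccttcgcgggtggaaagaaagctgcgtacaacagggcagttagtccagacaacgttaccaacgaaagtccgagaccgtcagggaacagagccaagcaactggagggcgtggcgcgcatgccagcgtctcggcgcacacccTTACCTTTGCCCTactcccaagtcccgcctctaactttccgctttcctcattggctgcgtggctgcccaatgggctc
Hadha: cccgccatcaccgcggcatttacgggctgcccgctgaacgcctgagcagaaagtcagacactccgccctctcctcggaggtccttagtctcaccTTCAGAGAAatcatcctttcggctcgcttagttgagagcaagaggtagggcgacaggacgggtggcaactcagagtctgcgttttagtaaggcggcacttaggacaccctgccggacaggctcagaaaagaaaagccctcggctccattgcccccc

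Hadha and Hadhb, which encode the 2 subunits of the trifunctional protein, are transcribed away from each other on chromosome 5. Their start sites at 30154980 and 30155253 have 272 bases between them, so that the windows overlap over 228 bases and the STAT letters of both are the same. Their log2 levels were low and high in some of the same arrays. Hadha had 10.06, 10.63 and 10.67 in Stat3-deleted male tumours against 10.69, 9.84 and 9.95 in control male tumours, and 10.80, 10.84 and 10.36 in Stat3-deleted female tumours against 10.54, 10.28 and 10.16 in control female tumours. Hadhb had 9.35, 10.21 and 10.26 in Stat3-deleted male tumours against 10.25, 9.07 and 9.73 in control male tumours, and 10.33, 10.39 and 9.86 in Stat3-deleted female tumours against 9.97, 10.08 and 9.78 in control female tumours. Replicate 8 was the lowest tumour array of both and replicates 7, 16 and 17 were among the highest. In epithelial cells Hadha had 10.25, 10.93 and 10.54 in Stat3-deleted epithelial cells and 11.10, 10.96 and 10.54 in control epithelial cells, and Hadhb had 9.73, 10.46 and 10.29 in Stat3-deleted epithelial cells and 10.69, 10.44 and 10.01 in control epithelial cells. Hadha had a deletion difference of 0.32 in tumours and -0.29 in epithelial cells, and Hadhb of 0.26 and -0.22. The probes of Hadhb gave nearly equal values in its 2 probe sets, with 9.07 and 8.85 in replicate 8.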

How the data were processed

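RNA from 18 mouse samples was hybridised to 1 Affymetrix array each. Per the labels' protocols it was extracted with an RNeasy column kit and labelled with biotin through a whole-transcript kit. The deposited values are log2 expression values, which the authors made with RMA per the submitters' processing notes; the sources used here name neither its version nor whether all arrays were run as 1 set. The 35556 probe sets held values between 1.33 and 14.6, and the median of an array lay between 5.88 and 6.07. Arrays give no read depth, and the precision is limited by how many arrays a group had.

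Gene symbols came from the platform annotation. It gave 1 symbol for 21789 probe sets, several for 1621, which stayed unnamed, and no entry for 12146. Of the named ones 21698 matched a current gene record. Of the 32 genes, 30 had 1 probe set, and Hadhb and Ppargc1a had 2. Genes above the 25th percentile of an array in at least 3 arrays were tested, which kept 17316 of 19938.

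A limma 3.58.1 model (R 4.3.3) took all 18 arrays and gave each of the 6 groups its own mean, with an intensity trend, two-sided tests and Benjamini-Hochberg adjustment over the 17316 genes within each of 9 comparisons, at a threshold of 0.05. The tumour value of a genotype is the mean of the male and female groups. The code was tested on simulated data. Alternatives were a fit on the compared groups only, quantile normalisation, no filter or a stricter filter, array weights, no intensity trend, the mean of all probe sets, each replicate left out, control replicates 9 and 15 left out, and male tumours only. Promoter sequences are from RefSeq, build GRCm38.p6.

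The 32 genes, their roles and the other gene lists were chosen with earlier results of these data known. Any of the 32 genes could be named. Of the other fatty acid genes, up to 6 rises and 6 falls of largest size in a comparison were named. Stat3, marker genes and the near-identical genes Acaa1a and Acot1 were named besides. Acsl5, Acsl6 and Acacb were outside this rule and were picked after their values were seen.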

Additional observations from a re-analysis of the deposited data

How the results depend on the processing

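No paired analysis was possible because the replicate numbers run over the whole series and no 2 groups share any. Of the 17 falls in control tumours, 13 passed under all 18 alternatives, and of the 11 calls in Stat3-deleted tumours, 6 passed under all 17; no called direction reversed in any alternative run. Quantile normalisation gave 19 calls in Stat3-deleted tumours (2 higher, 17 lower), where 25.7% of all tested genes rose and 37.6% fell. It gave 21 in control tumours, all lower, where 26.0% of all tested genes rose and 34.5% fell. Array weights gave 19 calls in Stat3-deleted tumours (4 higher, 15 lower), where 36.5% of all tested genes rose and 41.0% fell. They gave 24 in control tumours, all lower, where 34.8% of all tested genes rose and 39.9% fell. Array weights also gave 1 call for deletion in epithelial cells (Acadl, -0.97, adjusted p = 0.00473), where 3.26% of all genes rose and 3.29% fell. For deletion in female tumours they gave 1 (Pdk4, 1.35, adjusted p = 0.0333), against 1.57% of all genes higher and 2.73% lower. In tumours of both sexes they gave 3 (Crat, Ehhadh and Pdk4, at 0.57, 1.16 and 1.18), against 2.70% higher and 5.47% lower. For the difference between tissues they gave 2 (Crat, 0.70, and Acadl, 0.89), against 2.19% higher and 3.81% lower. They down-weighted replicates 8, 4 and 10 the most, at 0.16, 0.30 and 0.36; the cause of these changes was not tested. Leaving out each replicate in turn gave 8 to 14 calls in Stat3-deleted tumours, with 8 without replicate 5 or 6 and 14 without replicate 4, and 15 to 20 in control tumours. For deletion in tumours of both sexes it gave 0 to 2, with 2 without replicate 18, and 0 to 0 in each of the other 6 comparisons. The counts with a replicate left out are given without shares of all tested genes. Male tumours alone gave 8 calls in Stat3-deleted mice (1 higher, 7 lower), where 24.5% of all tested genes rose and 29.6% fell. In control mice they gave 16, all lower, where 25.9% of all tested genes rose and 26.5% fell. Under the stricter filter the share of all genes that rose and fell in control tumours was 37.9% and 27.7%, against 30.4% and 35.3% in the fit reported. The deposited values carry no detection call or background level, and with 3 arrays a group the SE of a deletion difference was 0.13 to 0.68 in epithelial cells.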

Other observations

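Control male tumour replicate 8 had opposite extremes among the 32 genes. Compared with the other 5 control tumours, its log2 levels were the lowest for Decr1 (7.51), Cpt2 (7.78), Hadhb (9.07), Decr2 (7.75) and Eci1 (8.08) and the highest for Ppara (8.28), Pdk4 (8.83), Angptl4 (7.73) and Cd36 (8.67). This array was picked out after its values were seen, and no test was made of it.

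Ppara and Cd36 ranged widely among tumours of the same genotype. Ppara lay between 6.63 and 7.83 in Stat3-deleted tumours and between 5.65 and 8.28 in control tumours, and Cd36 between 5.79 and 8.57 and between 6.06 and 8.67.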
